A study of Mus musculus with 108 samples.

Results

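The comparison concerned the optic nerve head (ONH) of DBA/2J mice at the onset of their glaucoma, before most axons are lost. ONH with no or early glaucoma at 10.5 months of age was set against preglaucoma ONH at 4.5 months, on 31 of the 108 Affymetrix Mouse Genome 430 2.0 arrays of the study. Arrays were chosen by their titles alone. No or early eyes came as sets 1 and 2, with 10 arrays from 10 mice and 11 arrays from 10 mice, and the sets were weighted equally. The labels do not say what separates the sets. Preglaucoma ONH came from 10 arrays of 7 mice. A further group at 10.5 months, 10 D2-Gpnmb+ arrays from 7 mice of the strain named DBA/2J-Gpnmb+, shares the age of the no or early mice and does not develop the disease. All these mice were female, and where the labels mention radiation they state that none was given. Both eyes of some mice were arrayed, and a number shared by a left and a right eye was read as 1 mouse. A few passages also use moderate glaucoma ONH (9 arrays from 9 mice) and severe glaucoma ONH (10 arrays from 9 mice), all at 10.5 months.

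DBA/2J mice are homozygous for mutations in Tyrp1 and Gpnmb, both of which code for melanosome proteins. From these mutations follow an iris disease, pigment dispersion, raised eye pressure and a loss of retinal ganglion cells with age. D2-Gpnmb+ mice carry a functional Gpnmb allele together with the mutant Tyrp1. The ONH is where ganglion cell axons leave the eye through a mesh of astrocytes, and it is regarded as the site of early axon damage in this strain. Neural crest melanocytes lie in the choroid around it and make melanin in melanosomes, with tyrosinase (Tyr), Tyrp1 and Dct as enzymes, Pmel as the fibril scaffold and Mitf, Pax3 and Sox10 as regulators. Reactive glia in stressed nervous tissue make acute-phase proteins such as lipocalin 2 (Lcn2), serum amyloid A and the protease inhibitor Serpina3n. Each punch held, per the labels, some central retina, choroid and sclera besides the glial lamina, so fewer cells of a type and less RNA per cell cannot be told apart.

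Values are log2 signals (RMA) of 1 probe set per gene, differences are log2 differences ± standard error (SE), and p-values are limma's, adjusted by the Benjamini-Hochberg method over all 12100 tested genes. Rose and fell are used for genes with an adjusted p under 0.05. The number of arrays limits the precision. Genes entered the test with a signal of at least log2 5 on 8 or more of the 60 ONH arrays. A mean below that level lies near background, so the size of a fall to it, or of a rise from it, is a lower bound. That holds below for the falls of Pmel, Pax3, Slc45a2, Rab38, Mcoln3, Car6, Mlph, Sox10, Pla2g6, Smr2, Krt13, Smyd1, Matn3, Slc29a4 and Brca1 and for the rises of Saa1, Cfi, Lif, Bst2, Loxl3, Mmp11, Hsd17b2, Glycam1 and Tsx. Gpnmb read 6.92 ± 0.415 in no or early ONH (SD, n = 21), 9.23 ± 0.434 in D2-Gpnmb+ ONH (SD, n = 10) and 6.65 ± 0.316 in preglaucoma ONH (SD, n = 10). D2-Gpnmb+ arrays thus stood above the other 2 groups, whose mice carry the mutant allele. Array medians lay between 4.981 and 5.159 on no or early arrays and between 4.881 and 4.943 on preglaucoma arrays, so the 2 groups did not overlap in this measure. No range of mouse numbers was shared by the 2 groups. Age, disease stage and number range cannot be told apart.

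In no or early ONH 1190 genes rose, 9.83% of those tested, and 578 fell, 4.78%, against preglaucoma ONH, 14.6% in either direction. Without preglaucoma replicate 8 there were 863 rises and 370 falls. Most of these differences were small, with a median of 0.42 among rises and −0.30 among falls. Only 16 rises and 37 falls reached 2-fold. Pigment cell genes led the falls and the acute-phase gene Lcn2 led the rises. The split by direction depended on how arrays were scaled. Setting all array medians to 0 moved the median difference of all genes by −0.14 and gave 543 rises and 2983 falls, and repeated quantile normalization gave 680 and 731. Against D2-Gpnmb+ ONH the same 21 arrays had 265 rises (2.19%) and 81 falls (0.669%). D2-Gpnmb+ ONH against the same preglaucoma arrays had 468 rises (3.87%) and 268 falls (2.21%). Groups did not overlap for 24 genes with all 21 no or early arrays below all 10 preglaucoma arrays (0.198%) and for 4 genes with all above (0.0331%).

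**Figure D1:**
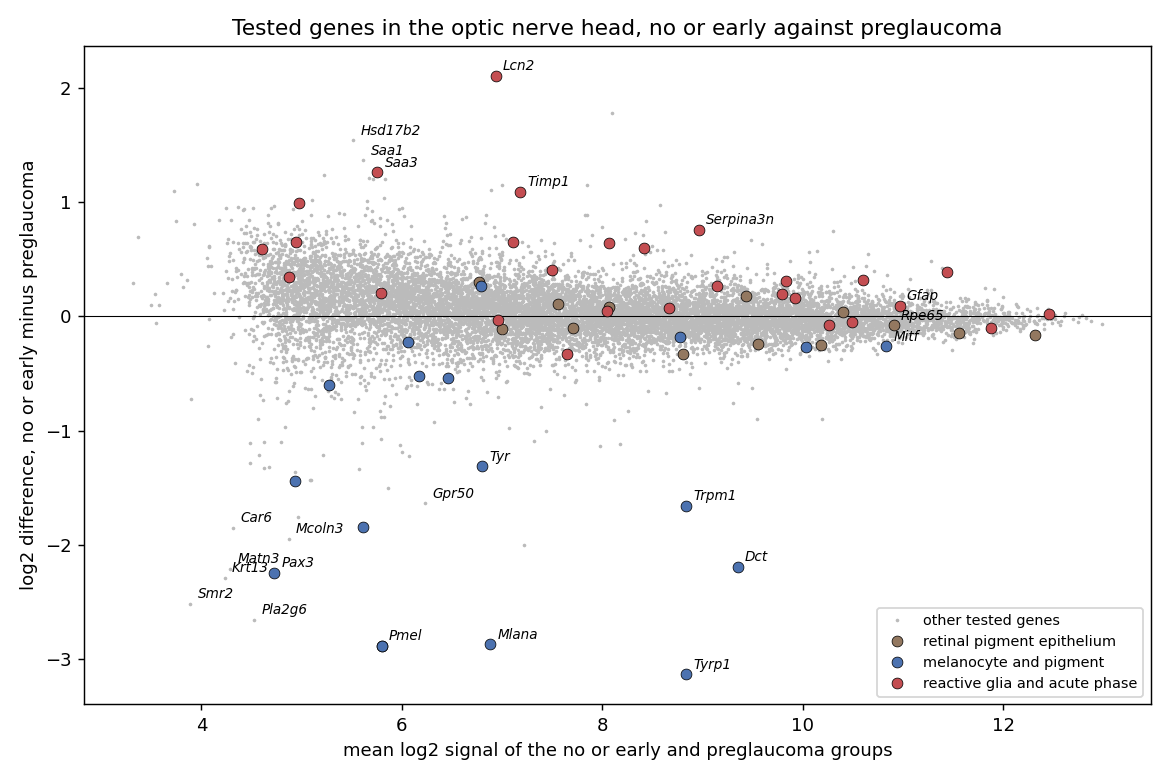
Log2 difference between no or early and preglaucoma ONH (vertical axis) against the mean log2 signal of the 2 groups (horizontal axis), 1 point per tested gene, with 3 gene lists in colour (Pmel, which is on the pigment epithelium list too, is drawn with the melanocyte list). Melanocyte genes such as Tyrp1 at −3.13 lie at the bottom, Lcn2 at 2.11 lies at the top, and the pigment epithelium gene Rpe65 lies near 0.

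Melanocyte genes fell together in no or early ONH. The melanocyte and pigment list has 19 members, 18 of them on the array and 17 tested. Of these 12 fell and none rose, beside 4.78% and 9.83% of all tested genes. The list median was −1.31 beside a median of 0.028 over all tested genes. Pmel, Pax3 and Slc45a2 passed the signal filter only through the groups in which they are high. Their falls are given as a description. With no filter on low values 12 of 18 genes fell and 1 rose, with a median of −0.96. Over all 18194 genes that setting had 1993 falls and 3148 rises. D2-Gpnmb+ ONH of the same age had a list median of 0.19 against the same preglaucoma arrays. It had 2 rises, Pmel and the Gpnmb that defines the genotype, and no fall, beside 3.87% and 2.21% of all tested genes. Set directly against D2-Gpnmb+ ONH, no or early ONH had 14 falls and a list median of −1.47, beside 0.669% of all tested genes that fell. The mean level of the list lay between 6.17 and 7.02 on the 21 no or early arrays, between 7.62 and 8.59 on the 10 D2-Gpnmb+ arrays and between 7.49 and 8.29 on the 10 preglaucoma arrays. No array of the first group reached the lowest of either other group.

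The melanosome enzymes and scaffold showed the widest gaps. Tyrp1, the enzyme mutated in this strain, read 6.55 to 8.40 with a median of 7.23 on no or early arrays and 9.87 to 11.19 with a median of 10.40 on preglaucoma arrays. Its difference was −3.13 ± 0.2, or 8.78-fold (adjusted p = 6.47e-19). All 3 Tyrp1 probe sets fell alike, by 3.13, 3.14 and 3.30. On D2-Gpnmb+ arrays Tyrp1 lay between 9.95 and 11.16, within the span of preglaucoma arrays. Pmel, which builds the fibrils on which melanin is laid down, read 3.66 to 5.68 (median 4.34) in no or early ONH and 6.26 to 8.62 (median 7.16) in preglaucoma ONH. It fell by 2.88 ± 0.19 to a mean of 4.36. Mlana, a melanosome protein that binds Pmel, read 4.37 to 6.27 (median 5.56) against 7.57 to 9.04 (median 8.28) in preglaucoma ONH, a fall of 2.87 ± 0.186 (adjusted p = 1.17e-18). Dct, which converts dopachrome in the same pathway, read 7.37 to 9.02 (median 8.34) in no or early ONH and 10.17 to 11.07 (median 10.39) in preglaucoma ONH and fell by 2.19 ± 0.151 (adjusted p = 1.2e-17). For each of these genes the highest no or early array stood below the lowest preglaucoma array.

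Tyr, the first enzyme of melanin synthesis, overlapped in part. It read 5.48 to 6.97 (median 6.08) in no or early ONH and 6.46 to 7.96 (median 7.52) in preglaucoma ONH, and 16 of 21 no or early arrays lay below every preglaucoma array. Its fall was 1.31 ± 0.184 (adjusted p = 4.51e-07). The melanosome transporter Slc45a2 fell by 1.44 ± 0.167, the ion channel Trpm1, which melanocytes share with ON bipolar cells, by 1.66 ± 0.233, and Rab38, which sorts enzymes to melanosomes, by 1.85 ± 0.147. Trpm1 was the only called gene of 12 tested on the bipolar cell list. Among the largest falls outside the list were Mcoln3 (−1.95 ± 0.162), a cation channel that melanocytes use, and Car6 (−1.85 ± 0.131), a secreted carbonic anhydrase. Mlph, which links melanosomes to their motor, fell by 1.44 ± 0.158. In D2-Gpnmb+ ONH the differences of these last 3 genes from preglaucoma were 0.35, 0.37 and 0.58. All 3 averaged under log2 5 in no or early and severe ONH and above it in preglaucoma and D2-Gpnmb+ ONH. Their falls are therefore given as a description as well. Mlph, Tyr and Slc45a2 were chosen after their values were seen. Other probe sets of Mcoln3 and Mlph, and 3 of the 4 Trpm1 probe sets, were near background.

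Regulators fell by smaller amounts, except Pax3. Pax3, a transcription factor of the melanocyte lineage, read 2.82 to 4.51 (median 3.59) in no or early ONH and 4.90 to 6.38 (median 5.85) in preglaucoma ONH. It fell by 2.24 ± 0.178, given as a description since it passed the signal filter only through the groups in which it is high. Sox10, a neural crest factor that oligodendrocytes use too, fell by 0.60 ± 0.185 (adjusted p = 0.0207), and Mitf, the master regulator of pigment genes, fell by 0.26 ± 0.0795 (adjusted p = 0.0187). Oca2, a melanosome ion transporter, fell by 0.52 ± 0.174 (adjusted p = 0.0328). These last 3 calls rested on single preglaucoma arrays. Sox10 was lost without replicate 5 (adjusted p = 0.0562) or 10 (adjusted p = 0.0509), Mitf without replicate 10 (adjusted p = 0.0679), and Oca2 without replicate 2 (adjusted p = 0.0592), 3 (adjusted p = 0.0628), 4 (adjusted p = 0.0605) or 8 (adjusted p = 0.0661). Mitf and Oca2 were named after their values were seen. Gpr143, a melanosome receptor chosen in the same way, differed by −0.54 ± 0.22 and did not pass (adjusted p = 0.0897).

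Genes of the neighbouring pigment epithelium had a single call, beside the 9.83% of all tested genes that rose and the 4.78% that fell. Of 14 tested members of the retinal pigment epithelium list none rose and 1 fell, Pmel, which both lists hold, and the list median was −0.11. Rpe65, the visual cycle isomerase that defines these cells, read 9.50 to 11.50 (median 10.86) in no or early ONH and 9.90 to 11.56 (median 11.05) in preglaucoma ONH. Its difference was −0.08 ± 0.261 (adjusted p = 0.884). The mean level of the list, Pmel included, was 8.38 to 9.14 in no or early ONH and 8.84 to 9.41 in preglaucoma ONH. With the photoreceptor and pigment epithelium means as covariates, 11 of the 17 melanocyte genes still fell. The pigment epithelium mean holds Pmel itself, so this adjustment is not independent of the melanocyte falls. Scleral and meningeal fibroblast genes, 19 tested, had no call and a median of −0.07.

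**Figure D2:**
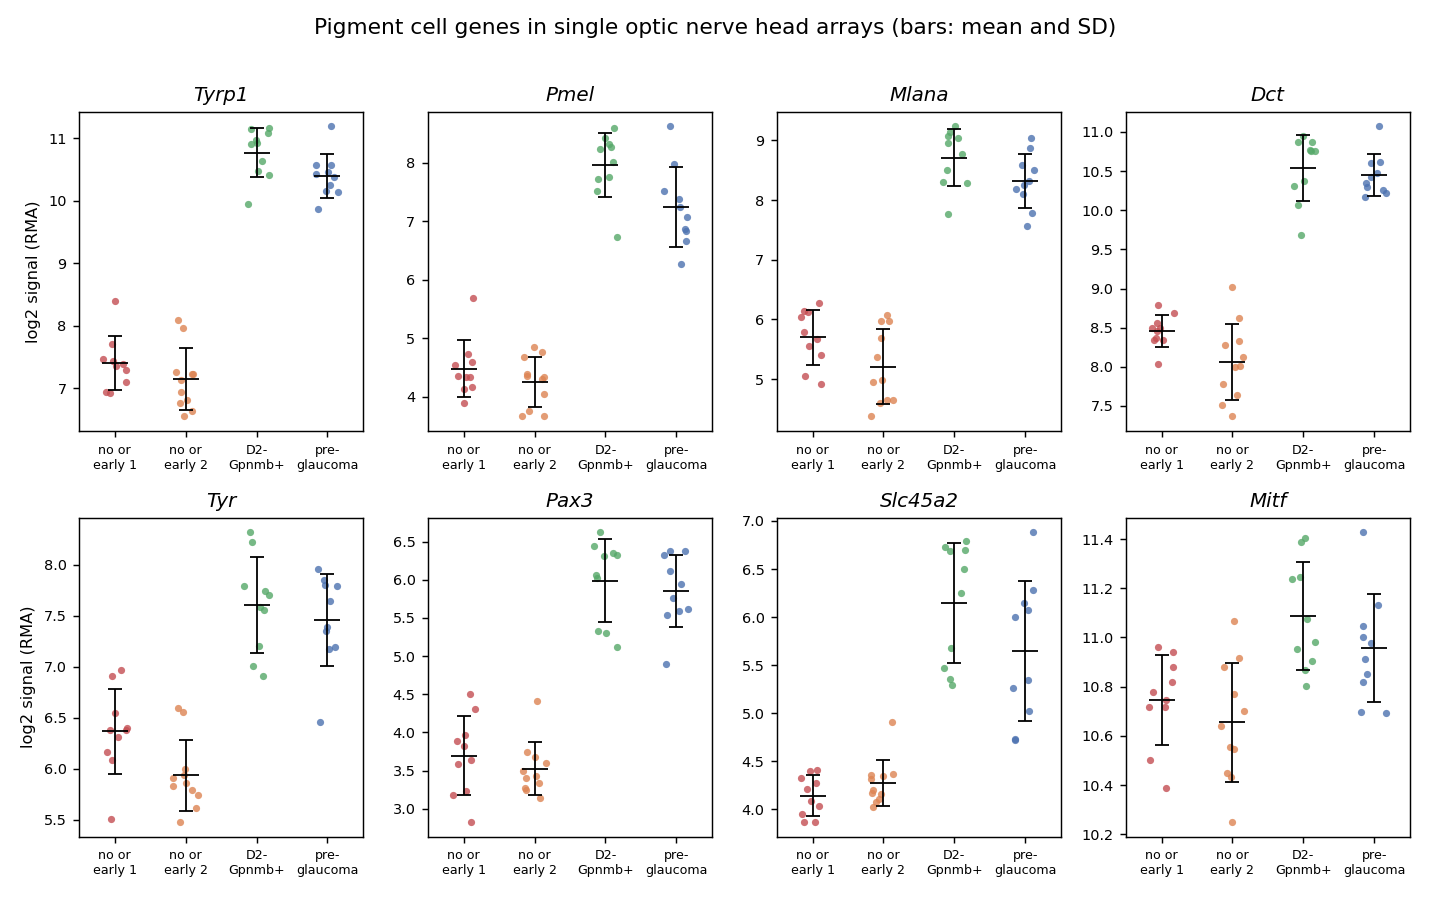
Log2 signal (vertical axes) of 8 pigment cell genes on single arrays of 4 ONH groups (horizontal axes), with the mean and SD of each group. No or early arrays of both sets lie below D2-Gpnmb+ and preglaucoma arrays for Tyrp1, Pmel, Mlana, Dct and Pax3, overlap them in part for Tyr and Slc45a2, and overlap them widely for Mitf.

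Promoters of the pigment genes were searched for the letters TCATGTG, the core of the element that Mitf binds, on both strands of the 250 bases before each start in the RefSeq table (GRCm38.p6, the reference strain and not DBA/2J). Of the 12 fallen genes on the list 6 had an entry, and 4 held the letters in an entry, beside 3.72% of the 27025 genes in the table and 3.25% of its 32851 promoters. The 4 promoters are shown because their genes moved together, with the letters or their reverse complement in capitals. Tyrp1 lies on the plus strand (chr4:80833963-80834212), with the match 47 bases before the start. Dct lies on the minus strand (chr14:118052247-118052496), with matches 151 and 232 bases before the start, the second on the opposite strand. Tyr lies on the minus strand (chr7:87493513-87493762), with the match 22 bases before the start. Trpm1 lies on the plus strand (chr7:64153585-64153834), with the match 142 bases before 1 of its 2 starts in the table. A match describes the letters only.
Tyrp1: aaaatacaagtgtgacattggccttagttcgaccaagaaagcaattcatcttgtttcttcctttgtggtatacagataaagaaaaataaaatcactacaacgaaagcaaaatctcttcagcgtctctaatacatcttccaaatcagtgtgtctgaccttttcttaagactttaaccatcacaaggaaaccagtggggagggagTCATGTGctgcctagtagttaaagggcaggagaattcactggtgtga 
Dct: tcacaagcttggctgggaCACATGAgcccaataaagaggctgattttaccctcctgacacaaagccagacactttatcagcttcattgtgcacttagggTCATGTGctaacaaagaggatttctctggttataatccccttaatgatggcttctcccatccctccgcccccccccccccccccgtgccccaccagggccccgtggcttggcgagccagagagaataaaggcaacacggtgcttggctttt 
Tyr: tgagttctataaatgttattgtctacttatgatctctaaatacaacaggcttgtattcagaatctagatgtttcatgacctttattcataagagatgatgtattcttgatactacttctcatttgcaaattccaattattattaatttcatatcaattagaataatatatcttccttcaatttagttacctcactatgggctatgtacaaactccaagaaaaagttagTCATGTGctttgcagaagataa 
Trpm1: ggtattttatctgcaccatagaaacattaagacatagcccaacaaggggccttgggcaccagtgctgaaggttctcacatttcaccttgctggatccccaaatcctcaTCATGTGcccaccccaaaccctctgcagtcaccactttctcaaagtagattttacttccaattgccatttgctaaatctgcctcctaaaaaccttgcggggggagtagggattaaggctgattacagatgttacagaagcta

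Acute-phase and reactive glial genes rose in no or early ONH. Of 28 tested genes on that list 10 rose and none fell, beside 9.83% and 4.78% of all tested genes. The list median was 0.31. D2-Gpnmb+ ONH had a list median of −0.14 against the same preglaucoma arrays. It had 1 rise and 3 falls, beside 3.87% and 2.21% of all tested genes. No or early ONH against D2-Gpnmb+ ONH had 9 rises and a median of 0.36, beside 2.19% of all tested genes that rose. With array medians set to 0 the list had 7 rises, 2 falls and a median of 0.17. All 12100 tested genes had 543 rises and 2983 falls in that setting.

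Lcn2, an iron-siderophore binding protein of the acute phase, varied widely between eyes. It read 5.29 to 10.42 (median 7.69) on no or early arrays, 3.66 to 5.68 (median 4.74) on D2-Gpnmb+ arrays and 4.21 to 10.08 (median 5.05) on preglaucoma arrays. The rise over preglaucoma was 2.11 ± 0.507, or 4.31-fold (adjusted p = 0.00261), and the difference of no or early from D2-Gpnmb+ ONH was 3.28 ± 0.507 (adjusted p = 1.06e-05). Groups overlapped, with only 4 of 21 no or early arrays above every preglaucoma array. A single preglaucoma eye set that ceiling, replicate 5, a left eye with Lcn2 at 10.08. The right eye of the same mouse, replicate 6, had 4.53. Preglaucoma replicates 8 and 9, from other mice, were raised as well, at 8.33 and 7.07. Replicate 5 had the highest preglaucoma level of Timp1 (8.21), Serpina3n (10.05), Saa3 (6.89) and Gfap (11.33) as well. Without replicate 5 the Lcn2 rise was 2.57 (adjusted p = 0.000108). Leaving out any single array left 8 to 10 rises on the list, with 8 without set 1 replicate 3, set 2 replicate 2 or preglaucoma replicate 3.

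Other acute-phase genes rose too. Saa3, a serum amyloid made locally in inflamed tissue, read 4.76 to 7.71 (median 6.57) in no or early ONH and 4.27 to 6.89 (median 4.94) in preglaucoma ONH, a rise of 1.27 ± 0.359 (adjusted p = 0.0113). Saa1, its circulating relative, rose by 1.37 ± 0.375 (adjusted p = 0.00855). Saa1 averaged 5.21 in D2-Gpnmb+ ONH and 4.93 in preglaucoma ONH, and no or early ONH did not pass against D2-Gpnmb+ ONH (1.06 ± 0.375, adjusted p = 0.121). A single D2-Gpnmb+ array, replicate 10, stood apart at 8.96 and raised the D2-Gpnmb+ mean. No order of D2-Gpnmb+ and preglaucoma ONH is therefore read from Saa1. Timp1, an inhibitor of matrix metalloproteinases that reactive astrocytes secrete, read 6.39 to 9.40 (median 7.44) in no or early ONH and 5.85 to 8.21 (median 6.59) in preglaucoma ONH and rose by 1.09 ± 0.3 (adjusted p = 0.00871). Serpina3n, a protease inhibitor, read 8.37 to 10.22 (median 9.37) in no or early ONH and 7.63 to 10.05 (median 8.58) in preglaucoma ONH and rose by 0.76 ± 0.201 (adjusted p = 0.0062). In D2-Gpnmb+ ONH the differences of Saa3, Timp1 and Serpina3n from preglaucoma were −0.51, −1.29 and −0.57, and of these Timp1 passed (adjusted p = 0.0171). No or early ONH exceeded D2-Gpnmb+ ONH in Saa3, Timp1 and Serpina3n, by 1.77 ± 0.359, 2.38 ± 0.3 and 1.33 ± 0.201.

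Stat3, the transcription factor through which the interleukin 6 family induces acute-phase genes, differed between its probe sets. On the probe set used it rose by 0.66 ± 0.134 in no or early ONH (adjusted p = 0.000409) and by 0.49 in D2-Gpnmb+ ONH (adjusted p = 0.0486), each against preglaucoma. No or early and D2-Gpnmb+ ONH differed in Stat3 by 0.17 ± 0.134 (adjusted p = 0.578). Both other Stat3 probe sets above background gave smaller differences between no or early and preglaucoma ONH, 0.28 and 0.23. They averaged 6.87 and 6.41 in D2-Gpnmb+ ONH and 6.80 and 6.49 in preglaucoma ONH. Lif, a cytokine of that family, rose by 0.94 ± 0.275 in no or early ONH (adjusted p = 0.0134), with 17 of 21 arrays above every preglaucoma array. Against D2-Gpnmb+ ONH its difference of 0.62 ± 0.275 did not pass (adjusted p = 0.242). Gfap, the astrocyte filament often used as a marker of gliosis, read 10.67 to 11.42 (median 10.97) in no or early ONH and 10.66 to 11.33 (median 10.92) in preglaucoma ONH. Its difference of 0.09 ± 0.0833 did not pass (adjusted p = 0.51), and with array medians set to 0 it was −0.05. Its other 2 probe sets differed by 0.23 and 0.33.

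**Figure D3:**
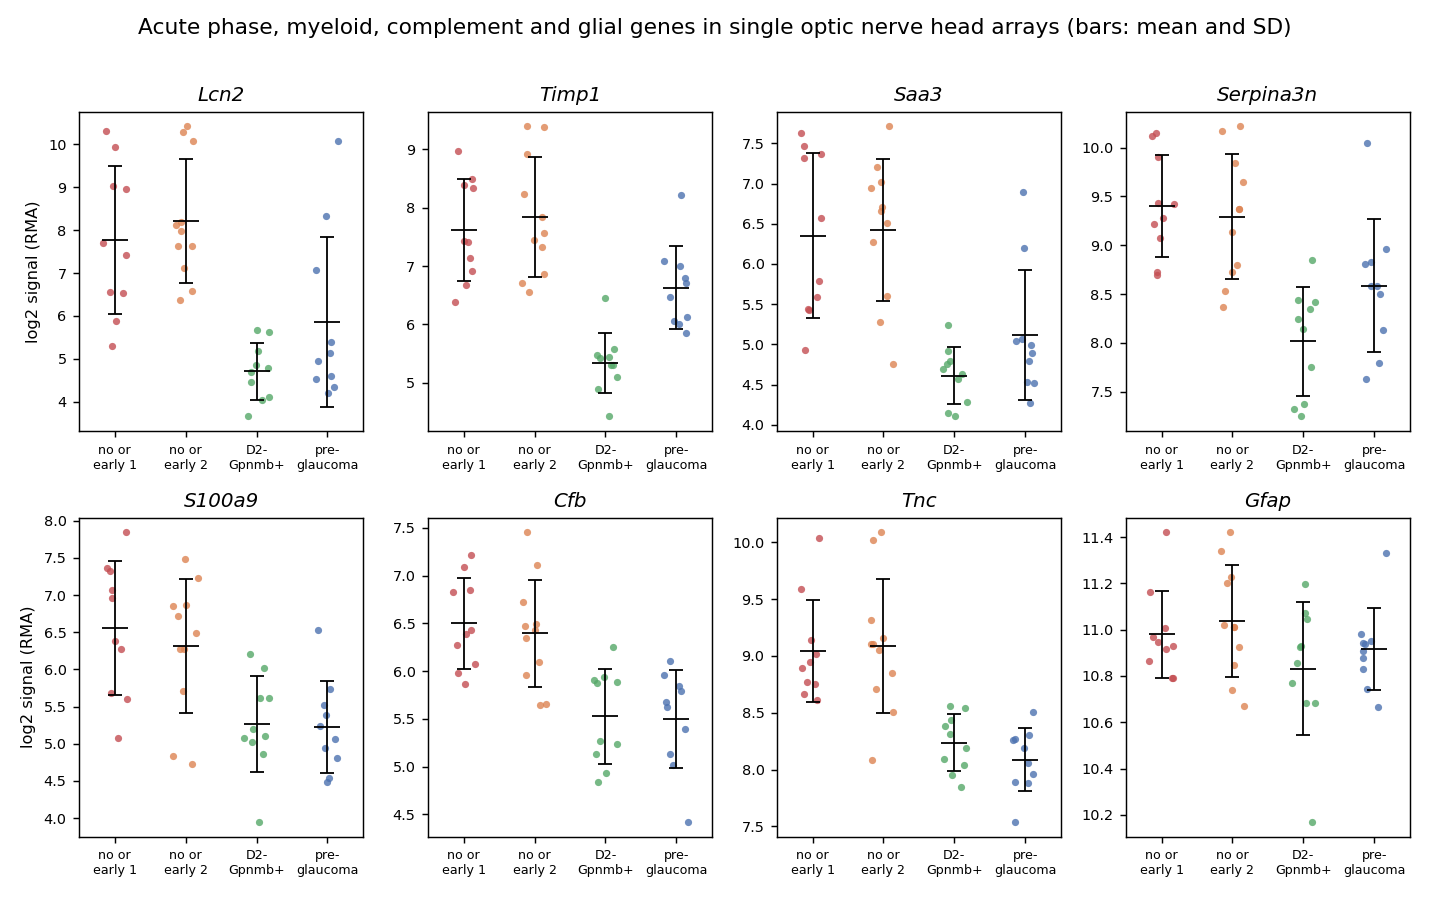
Log2 signal (vertical axes) of 8 acute-phase, myeloid, complement, matrix and glial genes on single arrays of 4 ONH groups (horizontal axes), with the mean and SD of each group. Lcn2 spreads from 5.29 to 10.42 on no or early arrays, the highest preglaucoma eyes stand at 10.08, 8.33 and 7.07, and the Gfap groups overlap.

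Immune lists held up to 4 rises each, to be read beside the 9.83% of all tested genes that rose. S100a9 and S100a8, the subunits of calprotectin in neutrophils and monocytes, were the only 2 calls among 13 tested genes of infiltrating leukocytes. S100a9 read 4.73 to 7.85 (median 6.49) in no or early ONH and 4.48 to 6.54 (median 5.15) in preglaucoma ONH and rose by 1.21 ± 0.35 (adjusted p = 0.0134). S100a8 rose by 0.95 ± 0.256 (adjusted p = 0.0077), with 12 of 21 arrays above every preglaucoma array. Among 16 tested complement genes only Cfb and Cfi rose. Cfb, a serine protease of the alternative pathway, read 5.65 to 7.45 (median 6.43) in no or early ONH and 4.42 to 6.10 (median 5.65) in preglaucoma ONH, a rise of 0.94 ± 0.202 (adjusted p = 0.000718). Cfi, which inactivates C3b and C4b, rose by 0.65 ± 0.227 (adjusted p = 0.0443), a call lost in 18 of the 31 fits that left out 1 array. C1qa, a chain of the first classical component, differed by 0.07 ± 0.182 (adjusted p = 0.858).

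Of 23 chemokine and cytokine genes 4 rose, namely Cxcl13, Lif, Il1b and Cxcl14. The count was 1 without preglaucoma replicate 6 and 2 without replicate 1, 3 or 8. Cxcl14, a chemokine of epithelia, rose by 0.55 ± 0.173 (adjusted p = 0.0243), lost without preglaucoma replicate 3, 6, 8 or 9. Cxcl13, an attractant of B cells, read 7.17 to 9.99 (median 8.36) in no or early ONH and 5.05 to 8.87 (median 6.91) in preglaucoma ONH, a rise of 1.15 ± 0.373 (adjusted p = 0.0285). The call was lost without preglaucoma replicate 1 (adjusted p = 0.051), 2 (adjusted p = 0.0694) or 6 (adjusted p = 0.089). Il1b, the inflammasome cytokine, rose by 0.92 ± 0.319 (adjusted p = 0.0415), lost in 16 of the 31 fits. The immunoglobulin gene Igha had a difference of 1.78 ± 0.786 and did not pass (adjusted p = 0.12), reading 3.28 to 12.11 in no or early ONH and 3.20 to 10.10 in preglaucoma ONH. Igha was named after its values were seen.

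The microglia and macrophage list had 1 call. Of 27 tested genes 1 rose, the transcription factor Spi1 (0.41 ± 0.132, adjusted p = 0.0281), and the list median was 0.04. Spi1 means were under log2 5 in both groups, and the call was lost without preglaucoma replicate 2 (adjusted p = 0.0516), 6 (adjusted p = 0.0561), 8 (adjusted p = 0.0963) or 10 (adjusted p = 0.051). D2-Gpnmb+ ONH had 10 falls on this list and a median of −0.40 against the same preglaucoma arrays, beside 2.21% of all tested genes that fell. Set directly against D2-Gpnmb+ ONH, no or early ONH had 12 rises on the list and a median of 0.48, beside 2.19% of all tested genes that rose. Among interferon response genes all 20 tested had differences above 0, with a median of 0.35, but only Bst2, an antiviral membrane tether, passed (0.69 ± 0.213, adjusted p = 0.0199, and 0.0524 without preglaucoma replicate 5). Antigen presentation had 3 rises of 14, the peptide transporters Tap1 (0.61 ± 0.146, adjusted p = 0.0026) and Tap2 (0.48 ± 0.129) and the class II chaperone H2-DMa (0.41 ± 0.114). D2-Gpnmb+ ONH differed from preglaucoma by 0.4, 0.34 and 0.35 in these genes. No or early ONH did not pass against D2-Gpnmb+ ONH in Tap1 (adjusted p = 0.516), Tap2 (adjusted p = 0.633), H2-DMa (adjusted p = 0.852) or Bst2 (adjusted p = 0.633). Vcam1, an endothelial and glial adhesion molecule, rose by 0.55 ± 0.139 (adjusted p = 0.0041) and exceeded D2-Gpnmb+ ONH by 0.63 ± 0.139 (adjusted p = 0.00355).

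Matrix genes were counted in 3 lists, beside the 9.83% of all tested genes that rose. No difference between these lists was tested. Fibrous and basement membrane collagens had no call among 29 tested genes, with a median of −0.01, and Col1a1, the main scleral chain, differed by −0.17 ± 0.0848 (adjusted p = 0.188). Enzymes that process collagen had 5 rises of 20 tested and a median of 0.08. P4ha2, a prolyl hydroxylase subunit, read 6.41 to 7.23 (median 6.81) in no or early ONH and 5.26 to 6.91 (median 6.02) in preglaucoma ONH and rose by 0.77 ± 0.122 (adjusted p = 6.91e-06). D2-Gpnmb+ ONH differed from preglaucoma in P4ha2 by 0.52 (adjusted p = 0.0186). The procollagen protease Bmp1, the lysyl oxidase Loxl3 and the lysyl hydroxylase Plod2 rose by 0.57, 0.60 and 0.51, with Loxl3 lost without preglaucoma replicate 8 (adjusted p = 0.0522). A second Plod2 probe set above background differed by −0.08. With array medians set to 0 this list had 4 rises and 3 falls, beside 543 and 2983 over all 12100 tested genes.

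Tnc, the glycoprotein tenascin C of injured and developing tissue, rose in nearly every eye. It read 8.09 to 10.09 (median 9.02) in no or early ONH, 7.85 to 8.56 (median 8.25) in D2-Gpnmb+ ONH and 7.54 to 8.51 (median 8.12) in preglaucoma ONH. All but 1 of the no or early arrays, 20 of 21, lay above every preglaucoma array. The rise was 0.98 ± 0.188 (adjusted p = 0.000183), and the difference from D2-Gpnmb+ ONH was 0.83 ± 0.188 (adjusted p = 0.00451). The stromelysin Mmp11 rose by 0.89 ± 0.191 (adjusted p = 0.000823) and the leucine-rich proteoglycan Prelp by 0.52 ± 0.136 (adjusted p = 0.00557). Vcan, a hyaluronan-binding proteoglycan, rose by 0.71 ± 0.244 (adjusted p = 0.0401), a call lost in 12 of the 31 fits that left out 1 array. Of 40 matrix glycoproteins and proteoglycans 4 rose and 2 fell.

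**Figure D4:**
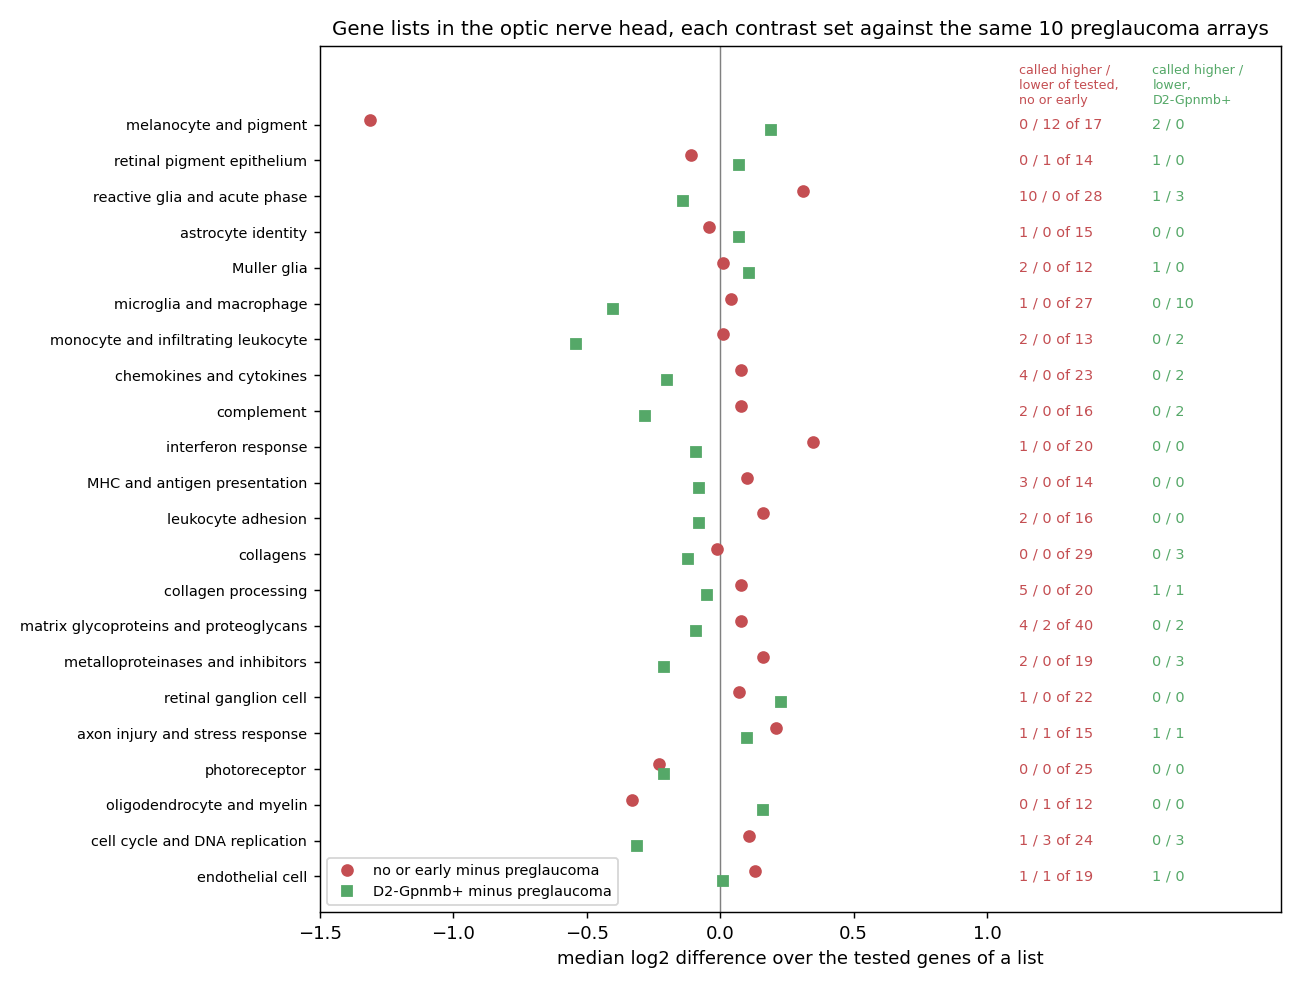
Median log2 difference over the tested genes of 22 lists (horizontal axis, 1 list per row) in no or early ONH and in D2-Gpnmb+ ONH, each against the same 10 preglaucoma arrays, with the counts of called genes at the right. The melanocyte list is far below 0 in no or early ONH and at 0.19 in D2-Gpnmb+ ONH, and the microglia list is at 0.04 and at −0.40.

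Ganglion cell and other neuronal lists are to be read beside the 9.83% of all tested genes that rose and the 4.78% that fell. Of 22 tested ganglion cell genes 1 rose, none fell and the median was 0.07. Without set 2 replicate 8 the list had 2 falls. Pou4f1, the transcription factor Brn3a of ganglion cells, read 9.18 to 10.13 (median 9.90) in no or early ONH and 9.72 to 10.26 (median 9.90) in preglaucoma ONH, a difference of −0.16 ± 0.227 (adjusted p = 0.694). Its second probe set averaged 6.33 in no or early ONH and 6.82 in preglaucoma ONH, a difference of −0.49. Sncg, the gamma synuclein of these cells, differed by 0.20 ± 0.136 (adjusted p = 0.366). Stmn2, a microtubule regulator of growing axons, rose by 0.47 ± 0.116 (adjusted p = 0.00332). In the axon injury list Tnfrsf12a, a receptor induced in injured neurons, rose by 0.88 ± 0.226 (adjusted p = 0.00482). Neither Stmn2 nor Tnfrsf12a passed between no or early and D2-Gpnmb+ ONH (adjusted p = 0.582 and adjusted p = 0.55). None of 25 photoreceptor genes passed, with a median of −0.23, and Nrl, the rod transcription factor, differed by −0.46 ± 0.427 (adjusted p = 0.526). Of 12 oligodendrocyte and myelin genes Sox10 alone fell, and the median was −0.33. The myelin gene Mobp, named after its values were seen, differed by −2.0 ± 0.873 and did not pass (adjusted p = 0.116), with 3.38 to 10.61 in no or early ONH and 4.80 to 10.66 in preglaucoma ONH. Edn2, the vasoconstrictor peptide endothelin 2, differed by 0.59 ± 0.436 (adjusted p = 0.405).

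Several of the largest rises belonged to none of these groups. Hsd17b2, which inactivates oestradiol and testosterone, read 5.12 to 7.77 (median 6.24) in no or early ONH and 3.97 to 5.76 (median 4.79) in preglaucoma ONH and rose by 1.54 ± 0.267 (adjusted p = 3.4e-05). Vdr, the nuclear vitamin D receptor, had all 21 no or early arrays, at 5.41 to 7.5 (median 6.20), above all preglaucoma arrays, at 4.56 to 5.36 (median 5.13). Its rise was 1.21 ± 0.23 (adjusted p = 0.000148). In D2-Gpnmb+ ONH Hsd17b2 and Vdr differed from preglaucoma by 0.92 (adjusted p = 0.0627) and 0.69 (adjusted p = 0.116), and no or early ONH did not pass against D2-Gpnmb+ ONH in either gene (adjusted p = 0.227 and adjusted p = 0.24). Bdkrb2, a bradykinin receptor, rose by 1.2 ± 0.312 (adjusted p = 0.00541), and its mean was 6.32 ± 0.826 in no or early ONH and 6.22 ± 0.9 in D2-Gpnmb+ ONH. Tsx, a transcript near the X inactivation centre, rose in both groups, by 1.02 ± 0.205 (adjusted p = 0.000371) in no or early and by 0.94 (adjusted p = 0.0101) in D2-Gpnmb+ ONH.

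Glycam1 and Prg4 followed the other ordering, with D2-Gpnmb+ near preglaucoma. Glycam1, a mucin-like ligand of L-selectin, read 4.40 to 6.68 (median 5.99) in no or early ONH and 3.50 to 5.65 (median 4.58) in preglaucoma ONH and rose by 1.24 ± 0.246 (adjusted p = 0.000307). Its difference from D2-Gpnmb+ ONH was 1.00 ± 0.246 (adjusted p = 0.0113). Prg4, the lubricating proteoglycan lubricin, rose by 1.11 ± 0.321 (adjusted p = 0.0133) and exceeded D2-Gpnmb+ ONH by 1.40 ± 0.321 (adjusted p = 0.00532). Vgf, a neuropeptide precursor induced by neurotrophins, rose by 1.15 ± 0.341 (adjusted p = 0.0158). Baiap2l1, an actin regulator, rose by 1.04 ± 0.178 (adjusted p = 2.82e-05). Neither Vgf nor Baiap2l1 showed that ordering. Vgf averaged 7.12 in D2-Gpnmb+ and 6.42 in preglaucoma ONH, and Baiap2l1 averaged 5.91 and 5.3. No or early ONH did not pass against D2-Gpnmb+ ONH in either gene (adjusted p = 0.554 and adjusted p = 0.198). The potassium channel Kcnj15 rose by 1.16 ± 0.258 (adjusted p = 0.00116) with both means under log2 5, so that only its direction is read.

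Mast cell genes belonged to no list and were picked after their values were seen, so their values are a description. Cpa3, the carboxypeptidase of mast cell granules, read 4.27 to 8.18 (median 7.15) in no or early ONH and 6.51 to 8.46 (median 8.16) in preglaucoma ONH and fell by 1.01 ± 0.314 (adjusted p = 0.022). Mcpt2 and Mcpt4, chymases of the same granules, fell by 0.90 ± 0.293 (adjusted p = 0.0293) and 0.92 ± 0.325 (adjusted p = 0.0453). The Mcpt2 call was lost without preglaucoma replicate 2 (adjusted p = 0.0583) or 9 (adjusted p = 0.0614), and the Mcpt4 call in 17 of the 31 fits. D2-Gpnmb+ ONH differed from preglaucoma by −0.96, −0.86 and −0.84 in these 3 genes, and none of the 3 passed. Cma1, a further chymase, the tryptase Tpsb2 and the IgE receptor chain Fcer1a differed by −0.83 ± 0.309, −0.56 ± 0.271 and −0.63 ± 0.314 in no or early ONH and did not pass (adjusted p = 0.0606, adjusted p = 0.164 and adjusted p = 0.175). Cell cycle and replication genes had 1 rise and 3 falls of 24, beside 9.83% and 4.78% of all tested genes. The falls were the helicase subunits Mcm5 (−0.69 ± 0.164, adjusted p = 0.00228), Mcm3 (−0.53 ± 0.174, adjusted p = 0.0314) and Mcm4 (−0.26 ± 0.0923, adjusted p = 0.0461). D2-Gpnmb+ ONH differed from preglaucoma by −0.66, −0.67 and −0.18 in these genes. Their severe means lay between the no or early and the preglaucoma means. Mcm3 was lost without preglaucoma replicate 5 (adjusted p = 0.0615) or 7 (adjusted p = 0.0693), and Mcm4 in 18 of the 31 fits. The other 4 probe sets of Mcm3 differed by −0.47, −0.09, 0.31 and −0.03. Both Mcm5 means were under log2 5, so that only the direction is read, and its other 2 probe sets differed by 0.33 and −0.01. Gpr50, an orphan receptor related to the melatonin receptors, fell by 1.64 ± 0.528 (adjusted p = 0.027, and 0.0585 without preglaucoma replicate 7).

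A further set of large falls separated 2 ONH groups from all others. Pla2g6, Smr2, Krt13 and Smyd1 read higher on all 10 preglaucoma arrays and all 10 severe glaucoma arrays than on all 40 other ONH arrays. No gene had the reverse pattern. Preglaucoma mice were 4.5 months old, and severe mice, like those of all other ONH groups, 10.5 months. For each of the 4 genes only preglaucoma and severe arrays reached log2 5, so they entered the test through the groups in which they are high, and their falls are given as a description. Smr2, a salivary protein gene, read 2.32 to 2.87 (median 2.64) on no or early arrays, 2.24 to 2.92 (median 2.55) on D2-Gpnmb+ arrays and 4.67 to 5.40 (median 5.20) on preglaucoma arrays. Pla2g6, a phospholipase, read 2.58 to 4.09 (median 3.17) on no or early arrays, 2.84 to 3.73 (median 3.13) on D2-Gpnmb+ arrays and 5.57 to 6.10 (median 5.89) on preglaucoma arrays. Krt13, a keratin of stratified epithelia, and Smyd1, a muscle methyltransferase, averaged 3.09 and 4.01 in no or early ONH and 5.38 and 5.33 in preglaucoma ONH. For Pla2g6 and Krt13 the other probe sets of the gene did not fall, with differences of 0.57 and 0.50 for Pla2g6 and of 0.15 and 0.28 for Krt13. One other Smyd1 probe set differed by −1.21 and the rest by −0.48 to 0.05, and the other 2 of Smr2 by −0.79 and −0.65. Smyd1 was named after its values were seen. Matn3, a cartilage matrix protein, fell by 2.21 ± 0.213, Slc29a4, a monoamine transporter, fell by 1.76 ± 0.137, and their second probe sets differed by −0.13 and 0.56. Matn3 averaged 5.39 in preglaucoma and 4.89 in severe ONH, and Slc29a4 averaged 5.84 and 5.21. Both averaged under log2 5 in no or early and D2-Gpnmb+ ONH, so their falls are given as a description as well.

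Probe sets named _x_at, a suffix that Affymetrix gives where probes may match several transcripts, served 8 of the 37 genes that fell at least 2-fold (21.6%). They served none of the 16 that rose as much, 62 of 578 falls (10.7%), 25 of 1190 rises (2.1%) and 535 of all 12100 tested genes (4.42%). Mcm5 and Mcm4 were read on probe sets of this kind. The fallen melanocyte genes were not alike on severe arrays. Tyrp1 averaged 6.61, Mlana 5.00 and Dct 7.71 on severe arrays, below the no or early means of 7.27, 5.44 and 8.25, and Pmel, Tyr, Trpm1, Oca2, Mitf and Sox10 were below theirs as well. Rab38 averaged 5.71 on severe arrays and 4.70 on no or early arrays, against 6.53 on preglaucoma arrays. Pax3 averaged 4.10 on severe and 3.60 on no or early arrays, and Slc45a2 averaged 4.25 and 4.21. What sets the 20 arrays apart in these 4 genes was not tested.

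**Figure D5:**
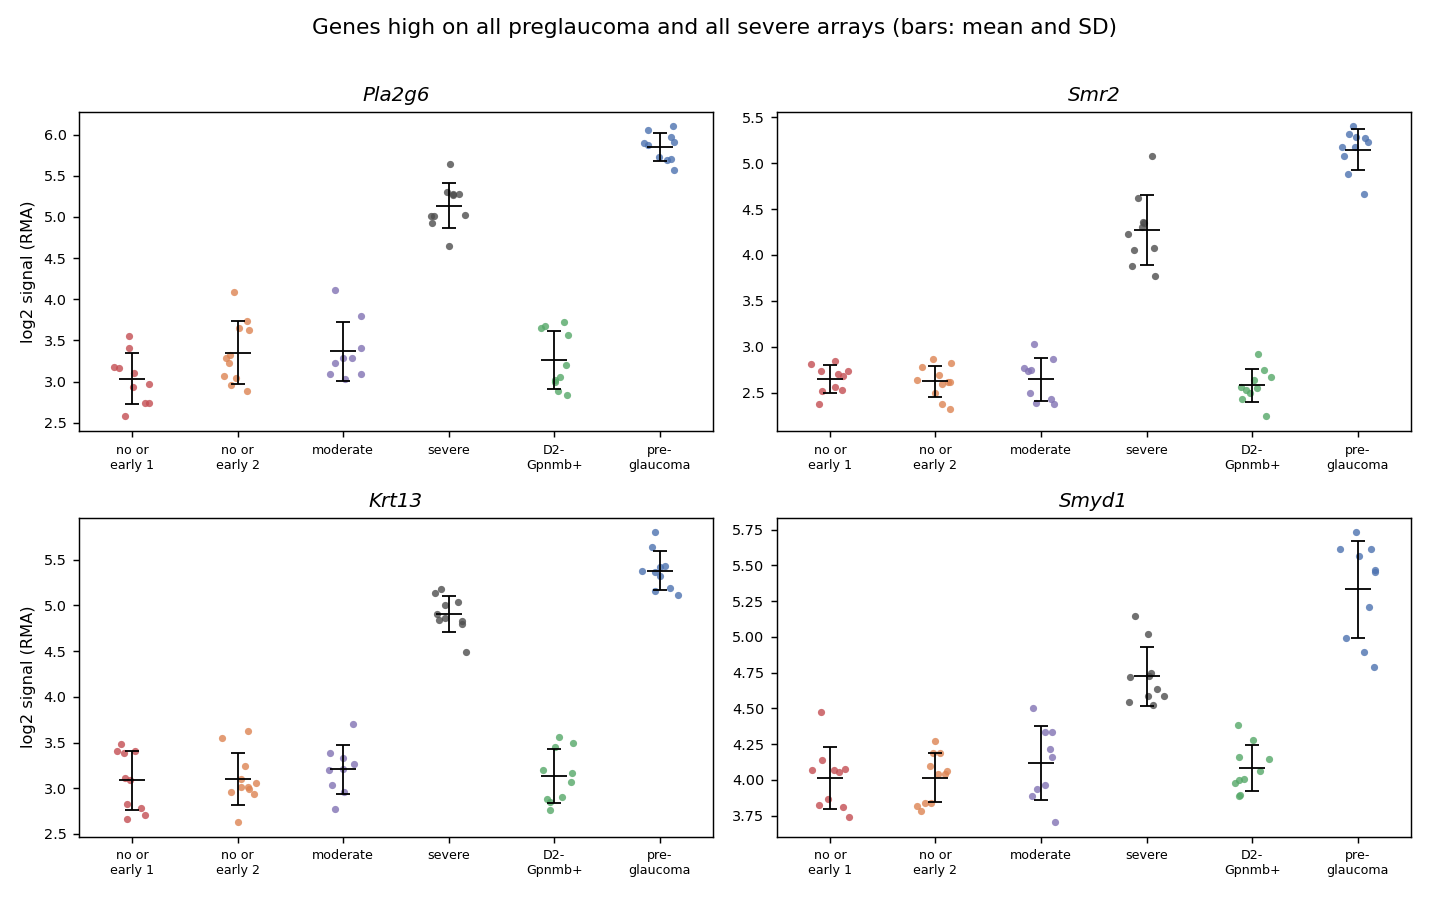
Log2 signal (vertical axes) of Pla2g6, Smr2, Krt13 and Smyd1 on single arrays of all 6 ONH groups (horizontal axes), with the mean and SD of each group. All preglaucoma and all severe arrays stand above the 40 arrays of the other groups for each gene.

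The 2 sets of no or early eyes were also fitted one at a time. Set 1 had 691 rises and 362 falls against preglaucoma ONH and set 2 had 866 and 327. The sets share the preglaucoma arrays. Set directly against each other in limma they differed in no gene after adjustment, and 249 genes had an unadjusted p under 0.05. Tyrp1 averaged 7.40 in set 1 and 7.15 in set 2, and Lcn2 averaged 7.76 and 8.22. Within the ranges of mouse numbers the melanocyte list kept its direction. It had 10 falls with the lowest range of no or early mouse numbers, 9 with the middle range and 9 with the highest, with medians of −1.26, −1.41 and −1.2. The acute-phase and reactive glial list had 10, 3 and 1 rises in the same order, with medians of 0.34, 0.29 and 0.17. Over all tested genes these ranges had 996, 366 and 218 rises and 417, 187 and 133 falls. One preglaucoma mouse with 2 arrays stood apart by its number, and without it 11 melanocyte genes fell and 9 acute-phase genes rose.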

How the data were processed

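ONH RNA was measured on 60 of the 108 arrays of the study. Per the labels' protocols, 20 ng of RNA was amplified with the NuGEN Ovation system and 2.5 µg was hybridized. The deposited values are log2 signals, 1 per probe set, made with GCOS, RMA and affy per the submitters' processing notes; versions are not given in the sources used here. Of 45101 probe sets, 34958 name 1 gene, 932 several and 9211 none, and the probe set with the highest ONH mean stood for each of 18194 genes.

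limma 3.58.1 (R 4.3.3) was fitted to all 60 ONH arrays with 6 group means and mouse as a random block (correlation 0.0774), tested on simulated data first. The contrast was the mean of both no or early sets minus preglaucoma. The named genes are the 15 largest called rises and falls with a named symbol, up to 5 called members of each of 48 lists and a set of markers; others are marked as chosen after their values were seen. Members and lists were chosen with earlier results of these data known. Replicate numbers were not used as pairs in this fit. Same-numbered arrays deviated together (r over 0.1) in 14 of 30 pairs. Arrays with different numbers were not compared, so whether the numbers pair the arrays is not known. Sources of the replicates other than mouse numbers are not given. Scalings, filters, probe set rules, blocks, covariates and subsets of arrays were tried as alternatives; leaving out single arrays, setting array medians to 0 and the contrast with D2-Gpnmb+ ONH were added after the data were seen. Promoter sequences were copied from the RefSeq table.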

Additional observations from a re-analysis of the deposited data

Results flagged for a closer look

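Single arrays stood apart from their group in 19 of 240 gene and group combinations with 10 arrays each, where the gap from the highest or lowest array to its neighbour, relative to the whole range, exceeded the critical value of Dixon's test. Chance alone gives about 1 in 20.

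Among no or early eyes, set 1 replicate 1 was highest for Tyrp1 (8.4) and Pmel (5.68), still below every preglaucoma array, and lowest for Mcm4 (9.31). Set 1 replicate 5 was lowest for Car6 (2.86). Among D2-Gpnmb+ eyes, replicate 8 was lowest for Trpm1 (9.49) and Sncg (8.31), replicate 10 was highest for Saa1 (8.96) and Loxl3 (6.2) and lowest for Pou4f1 (8.93), replicate 9 was highest for Vgf (8.28) and replicate 1 was lowest for Gfap (10.17). Among preglaucoma eyes, replicate 5 was highest for Timp1 (8.21) and Gfap (11.33) and lowest for Tyr (6.46) and Baiap2l1 (3.29). Preglaucoma replicate 10 was highest for Dct (11.07) and Tap2 (6.27), replicate 3 lowest for Vcan (6.71) and replicate 8 highest for Pou4f1 (10.26).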

How the results depend on the processing

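Counts of rises and falls, 1190 and 578 as reported, depended on the processing. Rises and falls numbered 2042 and 1168 with array weights, 3148 and 1993 with no filter on low values, 618 and 245 at an adjusted p under 0.01, 680 and 731 after repeated quantile normalization, and 543 and 2983 with array medians set to 0. With subsets of the arrays they numbered 691 and 362 in set 1, 866 and 327 in set 2, and 738 and 297 in left eyes. By mouse number they were 996 and 417 with the lowest range, 366 and 187 with the middle range and 218 and 133 with the highest. These ranges hold equally many no or early arrays, and what sets their counts apart was not tested. Rises of at least 2-fold numbered 10 and falls 20 when the probe sets of each gene were averaged, rises numbered 40 with the lowest range of mouse numbers, and falls numbered 70 with no filter. Leaving out 1 array gave 863 to 1324 rises and 370 to 698 falls.

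With the replicate number as a block on the 31 arrays, the counts were 1450 rises and 783 falls, or 18 and 35 at 2-fold and more. Same-numbered arrays correlated between −0.392 and 0.476 in their deviations (median 0.092). Without the same measure for arrays with different numbers, these values cannot show whether the numbers pair the arrays.

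All 68 called genes named with values kept their direction in the 18 other settings, and 25 kept their call in all of them. In all, 4 genes without a call changed direction. Rpe65 was 0.45 with the covariates, 0.03 in set 1 and 0.06 with the lowest and highest ranges and without the preglaucoma mouse that stands apart by number. The covariates hold a mean that includes Rpe65 itself and Pmel. Gfap was −0.01 with the highest range and −0.05 with array medians set to 0. C1qa was −0.04 with the middle range, −0.08 with array medians set to 0 and −0.04 to 0.15 with 1 array left out, lowest without preglaucoma replicate 3. Edn2 was −0.15 with the highest range and −0.45 in left eyes. The causes were not tested, and some settings hold fewer arrays or genes.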

Other observations

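Some probe sets of 1 gene disagreed. Brca1, the DNA repair gene, was named after its values were seen. On the probe set used it averaged 3.97 in no or early ONH, 5.91 in D2-Gpnmb+ ONH and 5.28 in preglaucoma ONH. Its fall from preglaucoma was at least 1.32 ± 0.163, since the no or early mean is near background. Brca1 averaged 4.18 in severe ONH, under log2 5 as well, and its fall is given as a description. Its other 3 probe sets differed by 0.29, 0.02 and −0.2.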
